A study of Mus musculus with 8 samples.

Results

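Cells with much CXCR6 protein on their surface were compared with cells with little, within each of 3 libraries of conventional CD4 T cells. The cells came from Foxp3-Cre-YFP mice in which EAE (experimental autoimmune encephalomyelitis, the mouse disease used to study multiple sclerosis) had been induced, and were sorted as CD44+, Foxp3-YFP-, TCRβ+ and CD11b- from brain without meninges at day 14, from spinal cord at day 14 and from spinal cord at day 50. All groups share the reporter genotype and the disease, no unimmunised group was used, and the labels state neither the number of mice in a library nor whether brain and spinal cord of day 14 came from the same mice. CITE-seq, in which antibodies carry DNA tags that are counted beside the RNA of each droplet, gave counts of unique molecules (UMIs) for the genes and for antibodies to CD69, P2X7 and CXCR6.

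CXCR6 is the receptor for CXCL16, a chemokine that is made as a membrane-bound protein and shed by ADAM proteases, and it is widely used as a mark of T cells that stay in a tissue. Resident memory T cells keep CD69 on their surface, which removes the exit receptor S1PR1 from the membrane, and they lower KLF2, the factor that drives S1PR1. In EAE, myelin-reactive CD4 T cells of Th1 and Th17 type enter the brain and spinal cord and make interferon gamma, GM-CSF and IL-17A there.

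Barcodes with fewer than 500 genes, or with over 10% of their UMIs from mitochondrial genes, were dropped, which left 10313 cells of brain day 14, 9270 of spinal cord day 14 and 1620 of spinal cord day 50. The value of a cell was its CXCR6 antibody count per 1000 RNA UMIs. Cells at or above the 75th percentile of their library were called CXCR6-high and cells at or below the 25th percentile CXCR6-low, which gave 2579, 2318 and 405 cells in each group, 10604 of the 21551 kept cells of the series. The upper limits were 6.81, 7.32 and 6.15 antibody counts per 1000 RNA UMIs and the lower limits 1.52, 2.37 and 0.989 (brain first, then spinal cord of day 14 and of day 50). The values ran on across both limits without a gap: in brain day 14 the 100 cells just inside the upper limit lay between 6.81 and 7.0 and the 100 cells just outside between 6.63 and 6.81, and at the lower limit these ranges were 1.47 to 1.52 and 1.52 to 1.57.

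**Figure D1:**
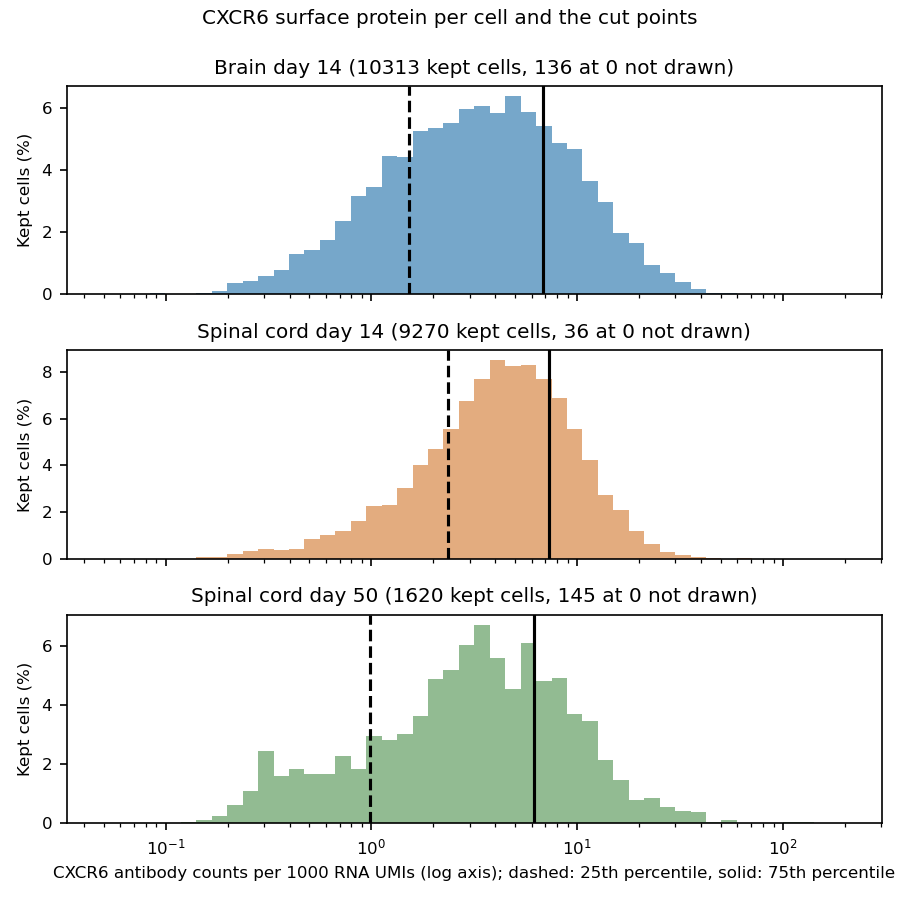
Share of kept cells (percent) by CXCR6 antibody counts per 1000 RNA UMIs on a log axis, with 1 panel per library and cells at 0 left out of the drawing. The dashed and solid lines mark the 25th and 75th percentiles, and the distribution has no gap at either line in any library.

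The groups differed widely in the count that chose them. The mean CXCR6 count per cell was 52.2 in high and 3.99 in low cells of brain day 14, 56.0 and 7.79 in spinal cord day 14, and 43.1 and 1.2 in spinal cord day 50. The RNA depth of the groups was close, with a median of 4022 UMIs in high and 3900 in low cells of brain day 14, 4556.5 and 5109.5 in spinal cord day 14, and 3489 and 3171 in spinal cord day 50. The antibody row is identified as CXCR6 in the files but carries a CD16 tag name. Its median count was 22 in brain day 14 cells with a Cxcr6 UMI and 6 in cells without, 26 and 9 in spinal cord day 14, and 17 and 4 in spinal cord day 50. Fcgr3, the CD16 gene, had a UMI in 19, 30 and 4 cells, and the median CXCR6 antibody count of cells with and without one was 13 and 13, 33.5 and 22, and 24 and 11. The row identified as P2X7 carries a CD3 tag name. Cells with a P2rx7 UMI had a median of 11 of its counts and cells without one 4 in brain day 14, 25 and 7 in spinal cord day 14, and 14 and 6 in spinal cord day 50, where cells with and without a UMI of the CD3 gene Cd3e had 5 and 4, 9 and 7, and 7 and 5. The libraries of brain and spinal cord day 14 shared 34 barcodes, brain day 14 and spinal cord day 50 shared 2, and the spinal cord libraries shared 5.

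The Cxcr6 transcript, which the grouping did not use, followed the protein. Cxcr6 (chr9:123806477-123811754, mm10) was read at 561 against 129.7 counts per 1000000 UMIs (CPM; high against low) in brain day 14, 824 against 316 in spinal cord day 14 and 496 against 89.4 in spinal cord day 50. High and low groups did not overlap over the libraries, and among the low groups that of spinal cord day 14 was the highest. In edgeR's quasi-likelihood fit over the 6 sums, with the library as a term, Cxcr6 was 3.74-fold higher in high cells. For Cxcr6, edgeR gave a log2 fold change of 1.90 (SE 0.14, adjusted p = 2.24e-06). Across the 4 quartile groups of the protein value its level climbed at each step, in brain day 14 from 129.7 through 290.4 and 424 to 561 CPM. After each cell was thinned to 2000 UMIs, a Cxcr6 UMI was found in 16.6% of low cells (exact 95% interval 15.1 to 18.2) and 59.5% of high cells (57.5 to 61.5) of brain day 14, in 35.4% (33.4 to 37.4) and 73.4% (71.5 to 75.2) in spinal cord day 14, and in 11.1% (8.11 to 14.8) and 56.2% (51.0 to 61.2) in spinal cord day 50. In each library a part of the CXCR6-high cells thus had no Cxcr6 UMI at this depth, and the libraries hold no cell type without the gene from which the share owed to free RNA could be read. Intervals here and below cover counting error only.

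The 250 bases before the RefSeq start of Cxcr6 are printed because it is the gene of the protein that set the groups, and those of Il17a because its product names the Th17 lineage and its transcript differed between the groups; capitals mark a match to AGGTCA, a core motif of nuclear receptors, on either strand.
Cxcr6, chr9:123806227-123806476, plus strand, GRCm38.p6: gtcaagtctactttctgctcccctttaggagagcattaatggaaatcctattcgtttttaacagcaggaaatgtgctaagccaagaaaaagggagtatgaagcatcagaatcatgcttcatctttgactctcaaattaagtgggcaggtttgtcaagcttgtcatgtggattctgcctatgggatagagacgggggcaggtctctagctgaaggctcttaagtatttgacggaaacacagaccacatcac
Il17a, chr1:20730655-20730904, plus strand, GRCm38.p6: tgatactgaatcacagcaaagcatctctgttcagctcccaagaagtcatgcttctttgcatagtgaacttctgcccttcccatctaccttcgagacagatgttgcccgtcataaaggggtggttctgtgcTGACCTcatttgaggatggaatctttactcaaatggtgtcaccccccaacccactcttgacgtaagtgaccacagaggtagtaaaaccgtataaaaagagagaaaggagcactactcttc
The Cxcr6 window held no AGGTCA, and neither window held CTTTGAA or CTTTGAT, the cores read by TCF factors. Il17a held 1 AGGTCA on the opposite strand, 120 bases before its start. Among 32536 distinct windows of the same length, 14.04% held AGGTCA, 4.469% CTTTGAA and 3.212% CTTTGAT on either strand, so that a single match is common.

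The other antibodies also gave more counts in CXCR6-high cells. CD69 stood at 2.51 antibody counts per 1000 RNA UMIs in high and 1.27 in low cells of brain day 14, 4.66 and 2.59 in spinal cord day 14, and 3.57 and 1.15 in spinal cord day 50. P2X7, an ATP-gated channel of resident cells, stood at 2.32 and 1.39, 3.80 and 2.34, and 4.63 and 1.41 in the same order. The ratios were 1.98, 1.80 and 3.10 for CD69 and 1.67, 1.62 and 3.28 for P2X7, and they share their denominator with the grouping, so they are given as a description without a test. CD69 as a share of CD69 plus P2X7 counts does not share it: it was 52.0% in high and 47.6% in low cells of brain day 14, 55.0% and 52.5% in spinal cord day 14, and 43.6% and 44.9% in spinal cord day 50. The share was thus higher in high cells of both day 14 libraries and not in spinal cord day 50. When cells were grouped by CXCR6 as a share of the 3 antibodies, the ratios turned, to 0.327, 0.192 and 0.249 for CD69 and 0.373, 0.229 and 0.7185 for P2X7; in that grouping the counts of the other antibodies are part of the value. Per RNA UMI, CD69 and P2X7 thus gave more counts in high cells under the rule of grouping. The difference in CXCR6 itself was set by that rule. For CD69 and P2X7 the higher counts did not hold in the grouping by antibody share. Median counts per cell were higher in high cells of each library for CD69, but not for P2X7. The median CD69 count per cell was 6 in high and 3 in low cells of brain day 14. In spinal cord these medians were 11 and 7 at day 14, and 7 and 1 at day 50. In brain day 14 the median P2X7 count per cell was 5 in high and 5 in low cells, with means of 9.89 and 6.59. The P2X7 medians were 10 and 7 in spinal cord day 14, and 15 and 3 in spinal cord day 50.

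The transcripts of both proteins were higher in CXCR6-high cells. Cd69 was read at 809.8 against 502 CPM in brain day 14, 490.1 against 329.6 in spinal cord day 14 and 379 against 222 in spinal cord day 50 (high against low), with high above low in each. Its log2 fold change was 0.67 (SE 0.06, edgeR adjusted p = 1.74e-05). P2rx7 was read at 33.0 against 23.6 CPM, 57.2 against 45.3 and 70.4 against 22.9 in the same order. The difference was widest in spinal cord day 50, at log2 1.62 against 0.49 and 0.34 in the day 14 libraries. The fit gave 0.54 (SE 0.13, adjusted p = 0.0109), adjusted p = 0.100 without brain day 14, and -1.10 (adjusted p = 0.00491) in the grouping by antibody share.

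Over the whole table, 8813 genes had at least 10 UMIs over the high and low sums of each library. Of these, 757 were higher (8.59%) and 669 lower (7.59%) in CXCR6-high cells at an edgeR adjusted p under 0.05, 16.2% in all, with a median log2 fold change over all genes of -0.00. Counts of called members in the gene lists below are to be read beside these shares, 8.59% higher and 7.59% lower. Of the calls, 1294 had the same direction in all 3 libraries, which the fit over these libraries itself favours. The share of all tested genes with the same direction in all 3 is not given here. Within single libraries, where only counting error can be set against a difference, 559 genes (4.71%) were at least 1.5-fold higher and 935 (7.87%) lower in brain day 14, 378 (3.13%) and 757 (6.27%) in spinal cord day 14, and 487 (5.52%) and 351 (3.98%) in spinal cord day 50, or 12.6%, 9.41% and 9.49% of the genes in either direction. In all 3 libraries at once 81 genes (0.919%) were higher and 121 (1.37%) lower. The p-values measure the spread of the high to low difference between these 3 libraries, which differ in tissue or day and have no replicate. Without brain day 14 the fit called 153 genes higher and 163 lower, and without spinal cord day 14 341 and 238.

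After Cxcr6, the largest positive differences among called genes of at least 50 CPM belonged to Tmem176b and Tmem176a, which encode paired membrane proteins typical of Th17 cells. Tmem176b was read at 202 against 50.3 CPM in brain day 14, 241 against 79.9 in spinal cord day 14 and 162 against 32.9 in spinal cord day 50 (high against low), a 3.66-fold difference. For Tmem176b, edgeR gave a log2 fold change of 1.87 (SE 0.10, adjusted p = 1.55e-07). Tmem176a was read at 198 against 51.8, 224 against 74.1 and 127 against 27.9 CPM, a 3.53-fold difference. For Tmem176a, edgeR gave a log2 fold change of 1.82 (SE 0.09, adjusted p = 1.32e-07). The same sign in all 3 libraries was a condition for the genes named by size, 12 in each direction. The 2 genes overlap on opposite strands of chromosome 6 (Tmem176a 48841483 to 48845364, Tmem176b 48833811 to 48845948), and whether the counting used strand is not given in the sources used here, so the split of UMIs between them is uncertain. In the grouping by antibody share both lost their call, at log2 0.10 (adjusted p = 0.671) for Tmem176a and 0.18 (adjusted p = 0.370) for Tmem176b.

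IL-17A, the cytokine that names the Th17 lineage, followed the same direction. Il17a was read at 270.1 against 68.7 CPM in brain day 14, 132 against 61.5 in spinal cord day 14 and 69.1 against 8.58 in spinal cord day 50, a 3.14-fold difference. For Il17a, edgeR gave a log2 fold change of 1.65 (SE 0.17, adjusted p = 3.19e-05). In both day 14 libraries the level climbed over the 4 quartile groups of CXCR6 protein, whereas in spinal cord day 50 it stood at 8.58, 221, 166 and 69.1 CPM from the lowest to the highest group, so the middle groups held the most. There, 60.2% of the 103 UMIs of the high group and 91.7% of the 12 UMIs of the low group came from 2 cells. Without the 2 richest cells of each gene in each sum, an alternative added after the data were seen, the log2 fold change was 1.78 (adjusted p = 7.81e-06). Il1r1, the receptor for interleukin 1 that supports Th17 cells, was read at 37.6 against 18.3 CPM, 73.3 against 41.1 and 8.05 against 5.01 (log2 0.93, SE 0.09, adjusted p = 1.76e-05), and its interval in spinal cord day 50 included no difference (log2 -0.78 to 2.27). In the grouping by antibody share Il1r1 lost its call (log2 0.22, adjusted p = 0.300).

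Of 17 genes on the Th17 list 11 were tested: 5 were higher and 1, the AP-1 factor Batf, lower, with a median log2 fold change of 0.64, and in the grouping by antibody share 2 were higher and 4 lower of 14 (median 0.10). Il23r, the IL-23 receptor, fell short of 10 UMIs in spinal cord day 50 and was not tested. Its summed UMIs, high against low, were 58 against 28 in brain day 14, 104 against 97 in spinal cord day 14, and 2 against 1 in spinal cord day 50. Gamma-delta T cells can make IL-17A too, and their 7 markers summed to 14.4 CPM in high and 6.38 in low cells of brain day 14, 15.9 and 7.21 in spinal cord day 14, and 34.9 and 20.7 in spinal cord day 50. Of these, Trdv4 was at 0 in every group, and Trdc, the delta chain gene, had 37 UMIs in high and 43 in low cells, 6 and 26, and 21 and 5. Tcrg-C1, a gamma chain gene, had 42 and 3, 69 and 32, and 11 and 8 UMIs, and Cd163l1, a scavenger receptor of IL-17-producing gamma-delta cells, had 53 and 17, 43 and 27, and 4 and 0. Their part in the Il17a result was not tested.

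**Figure D2:**
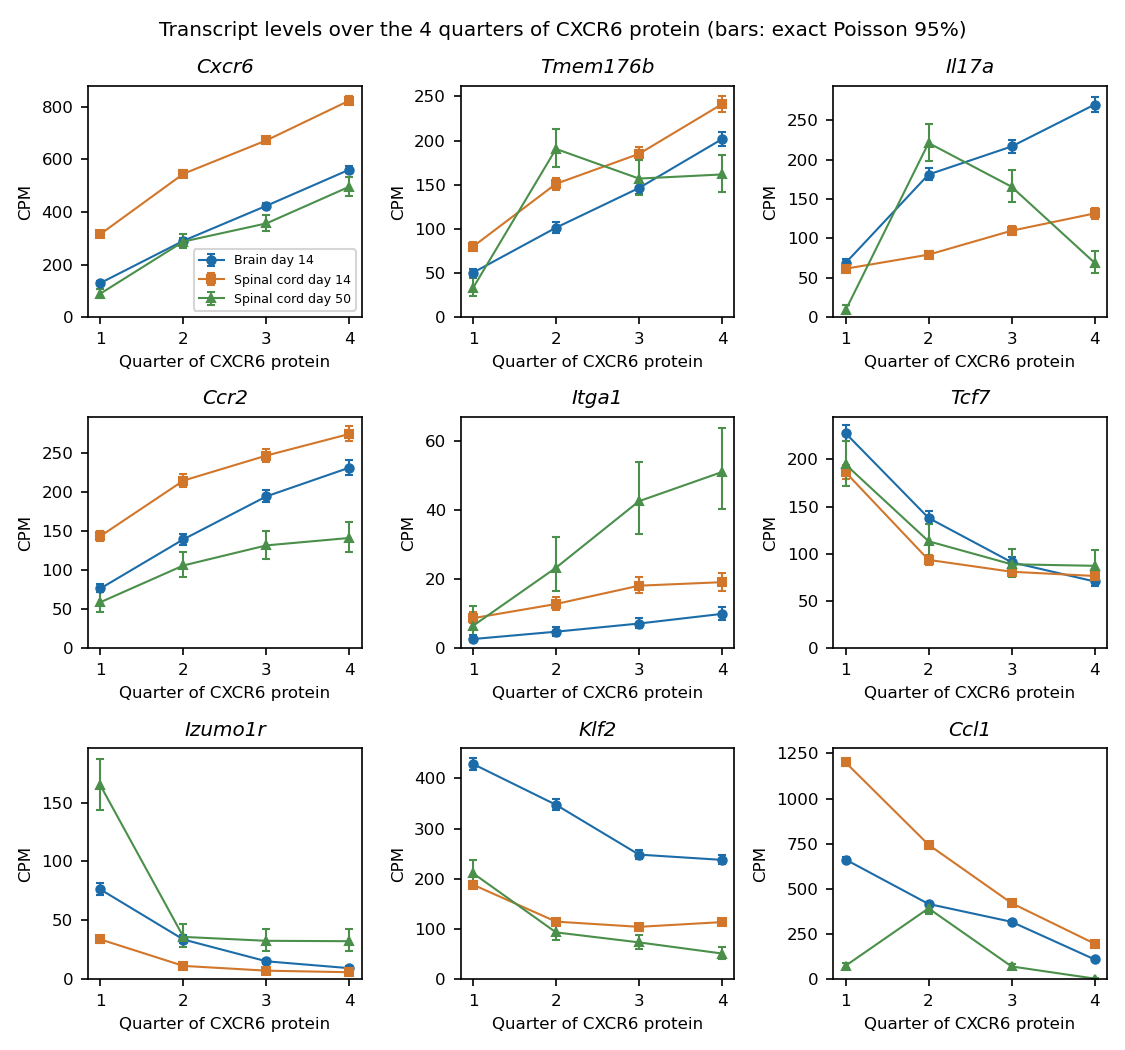
Level in CPM of 9 named genes over the 4 quartile groups of CXCR6 protein, from lowest to highest, in the 3 libraries, with exact 95% Poisson intervals. Cxcr6 climbs at each step in each library, Il17a of spinal cord day 50 peaks in the second group, and Tcf7 and Izumo1r drop most between the first and the second group.

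In the fit over the libraries, genes of tissue retention were more often higher than lower in CXCR6-high cells. Of 24 residency genes 22 were tested, of which 10 were higher, 2 lower and 10 not called, with a median of 0.44. The transcripts of the 3 antibody targets are among the 10 higher ones. Over all genes, 8.59% were higher and 7.59% lower. Within single libraries, 9 of the tested members were past 1.5-fold higher and 2 lower in brain day 14. In spinal cord day 14 these numbers were 3 and 4, so that lower members were not fewer there, and in spinal cord day 50 they were 10 and 1. Itga1, the collagen-binding integrin CD49a, was read at 9.91 against 2.62 CPM in brain day 14, 19.1 against 8.65 in spinal cord day 14 and 51.0 against 6.44 in spinal cord day 50. It was low throughout, with its highest level in the CXCR6-high cells of spinal cord day 50, and 3.01-fold higher over the libraries. For Itga1, edgeR gave a log2 fold change of 1.59 (SE 0.21, adjusted p = 0.000234). Bhlhe40, a factor that sustains resident cells and cytokine production, was higher at 678 against 368, 494 against 359 and 647 against 308 CPM. For Bhlhe40, edgeR gave a log2 fold change of 0.79 (adjusted p = 8.32e-05). Rgs1, which damps chemokine receptor signals, was higher at 838 against 445, 758 against 529 and 1636 against 883 CPM. For Rgs1, edgeR gave a log2 fold change of 0.77 (adjusted p = 2.32e-05). For both, high cells lay above low cells in each library, by at most log2 1.07 for Bhlhe40 and 0.91 for Rgs1.

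Other retention genes moved differently. Runx3, a factor for residency and for the Th1 program, was higher by log2 0.32 (adjusted p = 0.0101), and lost its call without either day 14 library (adjusted p = 0.405 without brain and 0.107 without spinal cord). Prdm1 (log2 0.46, adjusted p = 0.0743) and Zfp683, the gene for Hobit (log2 1.10, adjusted p = 0.0891), did not pass the test, the latter over 13 against 2 UMIs in brain day 14, 24 against 18 in spinal cord day 14 and 9 against 4 in spinal cord day 50. Itgae, which encodes the E-cadherin-binding integrin CD103, was not tested, with 22 UMIs in high and 19 in low cells of brain day 14, 19 and 29 in spinal cord day 14, and 4 and 3 in spinal cord day 50. Crtam, an adhesion receptor of cytotoxic CD4 cells, was lower, at 3.45 against 15.1 CPM in brain day 14 and 2.30 against 28.5 in spinal cord day 14, with 0 and 10 UMIs in spinal cord day 50. For Crtam, edgeR gave a log2 fold change of -2.92 (adjusted p = 9.55e-06). With groups from the antibody share, the list had 8 higher and 6 lower of 21 tested members and a median of -0.05.

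Genes of egress and lymph node homing lay in the opposite direction: of 12 tested, 1 was higher and 7 lower, with a median of -0.61. Klf2 was read at 238 against 429 CPM in brain day 14, 114 against 188 in spinal cord day 14 and 51.0 against 211 in spinal cord day 50. For Klf2, edgeR gave a log2 fold change of -0.99 (SE 0.16, adjusted p = 0.000844). S1pr1, the receptor that leads T cells out of tissue along sphingosine 1-phosphate, was read at 54.1 against 110.1, 73.7 against 114 and 40.2 against 227 CPM. For S1pr1, edgeR gave a log2 fold change of -1.09 (SE 0.20, adjusted p = 0.00224). For each, the groups kept their order in all 3 libraries and stood furthest apart in spinal cord day 50, at log2 -2.05 for Klf2 and -2.50 for S1pr1. These 2 calls were not made by DESeq2's Wald test (adjusted p = 0.0709 and 0.156), and in the grouping by antibody share Klf2 stood at 0.05 (adjusted p = 0.899) and S1pr1 at -0.0014 (adjusted p = 0.999), with a list median of 0.02.

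A lymph node homing receptor had a large ratio at low levels. Ccr7, the receptor for lymph node chemokines, was read at 2.0 against 43.9 CPM in brain day 14, 2.47 against 16.0 in spinal cord day 14 and 2.68 against 51.5 in spinal cord day 50. For Ccr7, edgeR gave a log2 fold change of -3.72 (SE 0.24, adjusted p = 6.09e-07). Cells with this transcript were rare in the high group of brain day 14: after thinning, 0.437% of high and 7.77% of low cells of brain day 14 had a Ccr7 UMI. Klf3, a relative of KLF2, was lower too. For Klf3, edgeR gave a log2 fold change of -1.44 (adjusted p = 6.09e-07). Il7r, the interleukin 7 receptor of memory cells, had no call (log2 -0.15, adjusted p = 0.296), with 430.2 against 481 CPM, 518 against 494 and 307 against 424.

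The list of follicular helper (Tfh) and stem-like genes had the lowest median, -1.37, with 9 of 10 tested members lower and 0 higher; Tcf7, Lef1 and Ccr7 stand on both this list and the egress list. Izumo1r, a folate receptor family member of Tfh and regulatory T cells, was read at 9.27 against 76.2 CPM in brain day 14, 5.83 against 33.7 in spinal cord day 14 and 32.2 against 165 in spinal cord day 50. For Izumo1r, edgeR gave a log2 fold change of -2.72 (SE 0.11, adjusted p = 6.54e-08). Tcf7, which encodes TCF1, the factor of self-renewing T cells, was read at 70.6 against 228, 76.4 against 186 and 87.2 against 195 CPM. For Tcf7, edgeR gave a log2 fold change of -1.41 (SE 0.09, adjusted p = 5.60e-07). The gap was more than 2-fold in each library for both, and both dropped most between the lowest and the second quartile group of CXCR6 protein. Between the third group and the highest, Tcf7 went from 91.0 to 70.6 CPM in brain day 14, from 80.9 to 76.4 in spinal cord day 14 and from 88.8 to 87.2 in spinal cord day 50, a step beyond the counting intervals in brain alone. After thinning, a Tcf7 UMI was found in 34.5% of low and 12.5% of high cells of brain day 14, 28.9% and 14.2% in spinal cord day 14, and 29.6% and 12.8% in spinal cord day 50.

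Slamf6, a receptor of the SLAM family that marks stem-like T cells, was read at 27.3 against 108, 18.8 against 79.5 and 16.1 against 95.9 CPM. For Slamf6, edgeR gave a log2 fold change of -2.06 (SE 0.09, adjusted p = 6.54e-08). From the lists of inhibitory, costimulatory and cytokine receptors, Cd200, an inhibitory ligand of Tfh cells, was lower at 11 against 47.0, 9.01 against 39.2 and 12.1 against 77.3 CPM. For Cd200, edgeR gave a log2 fold change of -2.15 (adjusted p = 1.34e-07). Cd27, a costimulatory receptor of less differentiated cells, stood at log2 -1.71 (adjusted p = 1.55e-07), Il6ra, the IL-6 receptor, at -3.41 (adjusted p = 1.87e-07), and Tox, a factor of exhausted and Tfh cells, at -0.96 (adjusted p = 0.000498; 0.0603 without brain day 14). With groups from the antibody share the Tfh and stem-like list had 10 of 11 tested members lower and a median of -1.19.

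**Figure D3:**
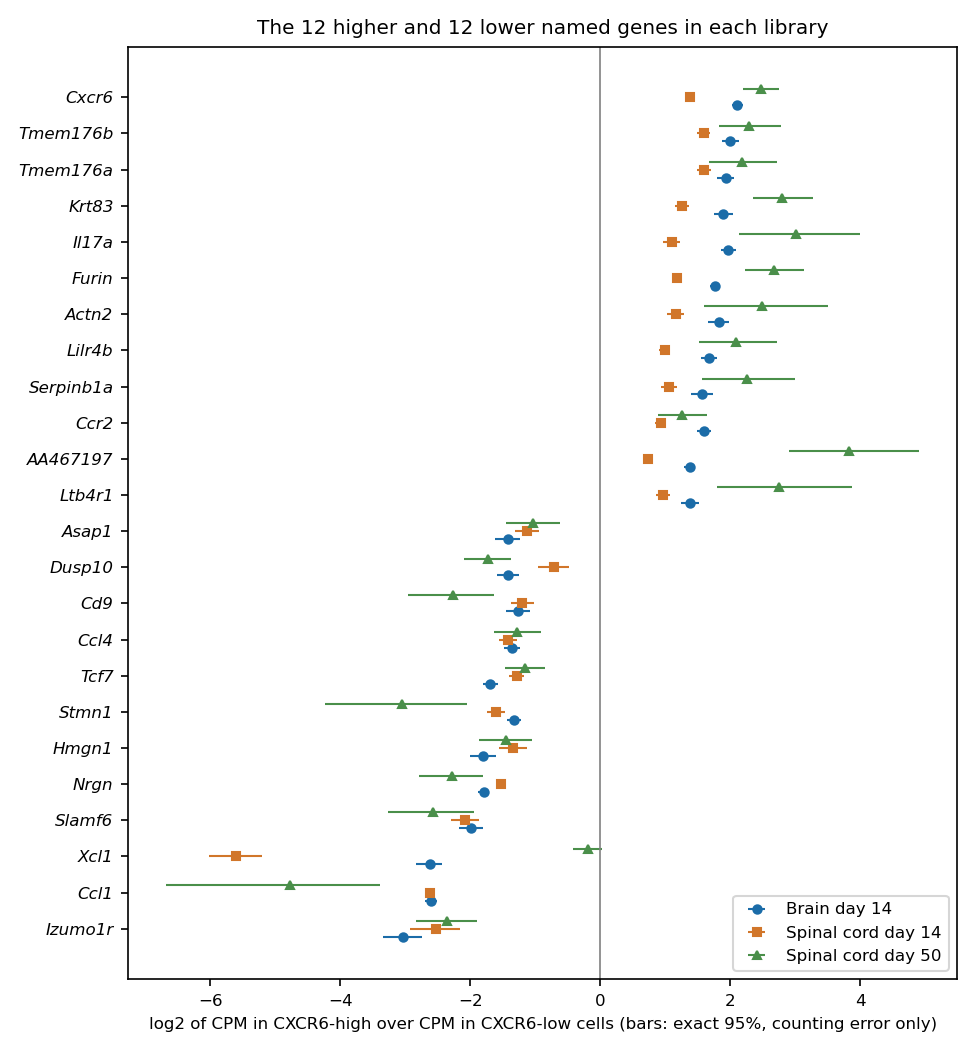
log2 of CPM in CXCR6-high over CPM in CXCR6-low cells for the 12 higher and 12 lower genes chosen by size among the more abundant called genes, in each library, with exact 95% intervals for counting error. The genes had to have the same sign in all 3 libraries to be chosen, which fixes the side of 0, so the picture shows sizes only; Xcl1 of spinal cord day 50 stands at -0.19 with an interval that includes 0.

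Among the other genes with the largest positive difference, Furin, a protease that matures TGF-β and is induced in activated T cells, was read at 616 against 182 CPM in brain day 14, 528 against 232 in spinal cord day 14 and 214 against 33.6 in spinal cord day 50. For Furin, edgeR gave a log2 fold change of 1.65 (SE 0.15, adjusted p = 1.35e-05). Krt83, a keratin gene, stood at 146 against 39.1, 194 against 80.5 and 230.0 against 32.9 CPM (log2 1.75, SE 0.16, adjusted p = 1.30e-05), and at 0.22 (adjusted p = 0.222) in the grouping by antibody share. Actn2, an actin-binding actinin, stood at 122 against 34.3, 119.8 against 53.5 and 48.3 against 8.58 CPM. For Actn2, edgeR gave a log2 fold change of 1.54 (adjusted p = 8.33e-06). Serpinb1a, a protease inhibitor, was higher too (log2 1.38, edgeR adjusted p = 9.10e-06). So were Ltb4r1, the receptor for leukotriene B4 (log2 1.26, adjusted p = 2.98e-05), and Lilr4b (log2 1.41, adjusted p = 1.76e-05). Lilr4b encodes a receptor with a close paralogue that could share its reads. AA467197 stood at 341 against 131, 393 against 235 and 101 against 7.15 CPM. For AA467197, edgeR gave a log2 fold change of 1.26 (adjusted p = 0.00122; 0.0516 without brain day 14).

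Some chemokine receptors of inflamed tissue were higher in CXCR6-high cells. Of 8 tested, 3 were higher and 1, Ccr7, lower, with a median of 0.45. Within spinal cord day 14 the median of the list was 0.0095. Without brain day 14, 1 was higher and 1 lower (median 0.29). In the grouping by antibody share 3 were higher and 3 lower of 9 (median 0.07). Ccr2, the receptor that draws monocytes and effector T cells to inflamed tissue, was read at 231 against 76.3 CPM in brain day 14, 274 against 143 in spinal cord day 14 and 141 against 58.7 in spinal cord day 50. For Ccr2, edgeR gave a log2 fold change of 1.27 (SE 0.11, adjusted p = 1.20e-05). Cxcr3, a Th1 chemokine receptor, stood at 167 against 120.1, 167 against 148 and 258 against 139 CPM. For Cxcr3, edgeR gave a log2 fold change of 0.46 (adjusted p = 0.00505; 0.106 without brain day 14). Ccr2 had the wider gap of these 2 genes. Cxcr4 had no call. For Cxcr4, edgeR gave a log2 fold change of -0.16 (adjusted p = 0.428), and 0.083 (adjusted p = 0.705) in the grouping by antibody share. Ccr6, a Th17 receptor, was not tested, with 56 UMIs in high and 85 in low cells of brain day 14, 52 and 120 in spinal cord day 14, and 5 and 2 in spinal cord day 50. Of the genes for the ligand and its shedding, Cxcl16 was not tested, and Adam10 was lower by a small amount. For Adam10, edgeR gave a log2 fold change of -0.25 (adjusted p = 0.0308).

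Integrin and adhesion genes had 10 higher and 1 lower of 16 tested (median 0.41), and 3 and 1 without brain day 14. Itga4, the α4 chain of the integrin VLA-4 that T cells use to enter the central nervous system, was the lower one, at 104 against 169 CPM in brain day 14, 168 against 243 in spinal cord day 14 and 111 against 197 in spinal cord day 50. For Itga4, edgeR gave a log2 fold change of -0.65 (SE 0.08, adjusted p = 9.18e-05). Itgal, the LFA-1 chain that binds ICAM-1, was higher at 197 against 133, 232 against 163 and 169.7 against 102 CPM (log2 0.58, adjusted p = 8.78e-05), and so was the adhesion receptor Cd226 at 148 against 76.2, 248.7 against 137 and 188 against 59.4 CPM. For Cd226, edgeR gave a log2 fold change of 1.04 (adjusted p = 2.02e-05). High and low groups kept these orders in each library. Itga4 lost its call in the grouping by antibody share (log2 -0.19, adjusted p = 0.137).

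The Th1 list had 7 higher and 1, Ccl5, lower of 12 tested (median 0.45). Ifngr1, a chain of the interferon gamma receptor, was higher at 655 against 389.6 CPM in brain day 14, 922 against 579 in spinal cord day 14 and 709.6 against 345 in spinal cord day 50. For Ifngr1, edgeR gave a log2 fold change of 0.81 (SE 0.07, adjusted p = 8.09e-06). Il18r1, the IL-18 receptor of Th1 cells, was higher too (log2 0.76, adjusted p = 0.00103). Id2, which is not on the list and is a factor that favours effector over Tfh fate, was higher at 881 against 447, 979 against 588 and 549 against 328 CPM. For Id2, edgeR gave a log2 fold change of 0.83 (adjusted p = 8.80e-06). The libraries agreed in direction for all 3. Tbx21, the gene of the Th1 factor T-bet, reached log2 0.53 (adjusted p = 0.0375; 0.430 without brain day 14). Without brain day 14 the list had 2 higher and 1 lower.

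The effector cytokines themselves differed between libraries. Ifng was read at 455 against 295 CPM in brain day 14, 342 against 414 in spinal cord day 14 and 541 against 144 in spinal cord day 50. High cells were above low cells in brain day 14 and spinal cord day 50 and below them in spinal cord day 14, and the fit gave no call. For Ifng, edgeR gave a log2 fold change of 0.60 (SE 0.24, adjusted p = 0.117). Csf2, the gene of GM-CSF, had the same pattern at 62.8 against 38.1, 42.7 against 59.4 and 12.7 against 5.01 CPM (log2 0.16, adjusted p = 0.637), with 19 and 7 UMIs in spinal cord day 50. In the grouping by antibody share Csf2 was lower, at log2 -0.72 (adjusted p = 0.000584). These differences between libraries have no test, as each library stands alone for its tissue and day.

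Chemokine ligands were lower in CXCR6-high cells. Of 13 tested effector cytokine and chemokine genes 2, Tnf and Ltb, were higher and 7 lower (median -0.42). Ccl1, the ligand of CCR8, was read at 109 against 662 CPM in brain day 14, 196 against 1200.1 in spinal cord day 14 and 2.68 against 73.7 in spinal cord day 50, the last over 4 and 103 UMIs. For Ccl1, edgeR gave a log2 fold change of -2.66 (SE 0.13, adjusted p = 1.27e-07). Ccl3 stood at 16.4 against 66.4, 11.7 against 51.1 and 7.38 against 33.6 CPM (log2 -2.06, adjusted p = 6.54e-08) and Ccl4 at 66.9 against 171, 49.6 against 133 and 63.7 against 154 CPM. For Ccl4, edgeR gave a log2 fold change of -1.35 (adjusted p = 1.34e-07). Ccl3 and Ccl4 encode chemokines that stimulated T cells release, and few cells held many of their UMIs: 2 cells gave 34.4% of the Ccl4 UMIs of the high and 41.1% of the low group in brain day 14. In the grouping by antibody share, Ccl3 (log2 -0.47, adjusted p = 0.0617) and Ccl4 (log2 -0.29, adjusted p = 0.199) lost their calls. Xcl1, the ligand of XCR1 on dendritic cells, was read at 21.7 against 134 and 4.77 against 231 CPM at day 14 and at 221 against 253 CPM in spinal cord day 50. The gap was thus seen at day 14 and not beyond counting error in spinal cord day 50. For Xcl1, edgeR gave a log2 fold change of -2.58 (adjusted p = 0.00843; 0.152 without brain day 14 and 0.0642 without spinal cord day 14).

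Genes of cytotoxic cells split, with 3 higher and 5 lower of 13 tested (median -0.07). Ctsw and Klrk1 of this list had more UMIs in high than in low cells of each library. Ctsw had 5597 and 3369 in brain day 14, 7859 and 7103 in spinal cord day 14, and 1020 and 340 in spinal cord day 50. Klrk1 had 315 and 81, 261 and 185, and 26 and 9 in the same order. Gzmk, a granzyme of memory-like cells, was read at 40.3 against 88.4 CPM in brain day 14, 17.5 against 46.3 in spinal cord day 14 and 116 against 223 in spinal cord day 50. For Gzmk, edgeR gave a log2 fold change of -1.16 (SE 0.08, adjusted p = 1.71e-06). Gzmb, the granzyme of killer cells, stood at 38.6 against 71.6, 17.6 against 61.3 and 18.8 against 17.9 CPM (log2 -1.20, SE 0.17, adjusted p = 0.000418), lower in high cells of the day 14 libraries and level in spinal cord day 50. Eomes, a factor of cytotoxic memory cells, was lower at 3.64 against 11.7, 1.06 against 6.22 and 15.4 against 51.5 CPM. For Eomes, edgeR gave a log2 fold change of -1.88 (adjusted p = 2.93e-05). Ccl5, a chemokine of the same cells that stands on the Th1 list and not on this one, was read at 1128 against 1699, 718 against 1347 and 2966 against 3348 CPM. For Ccl5, edgeR gave a log2 fold change of -0.56 (adjusted p = 0.00134). Gzmk, Gzmb, Eomes and Ccl5 were all lower in high cells over the libraries when cells were grouped by CXCR6 per RNA UMI. In the grouping by antibody share only the sign of Eomes was the same: Gzmb stood at 1.57 (adjusted p = 0.000659), Ccl5 at 0.48 (adjusted p = 0.00347), Gzmk at 0.12 (adjusted p = 0.481) and Eomes at -0.13 (adjusted p = 0.739), and the list had 7 higher and 3 lower of 14.

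Cell cycle genes were lower in CXCR6-high cells under the rule of grouping, with 17 of 19 tested lower and 0 higher (median -0.80). Mki67, a marker of cycling cells, was read at 24.9 against 38.8 CPM in brain day 14, 27.6 against 54.9 in spinal cord day 14 and 4.69 against 6.44 in spinal cord day 50. For Mki67, edgeR gave a log2 fold change of -0.80 (SE 0.10, adjusted p = 0.000175). Stmn1, a microtubule regulator of dividing cells, was read at 90.2 against 225, 48.1 against 145 and 6.04 against 50.1 CPM. For Stmn1, edgeR gave a log2 fold change of -1.50 (adjusted p = 7.91e-06). In spinal cord day 50 these sums rested on few UMIs, 7 and 9 for Mki67. The direction depended on how the protein was scaled: with groups from the CXCR6 count not divided by RNA UMIs, 11 were higher and 0 lower of 21 (median 0.47), with Mki67 at 0.58 (adjusted p = 0.00252) and Stmn1 at 0.58 (adjusted p = 0.00407). Median RNA UMIs were then 5133.5 in high and 2837.5 in low cells of brain day 14, 5477 and 4347.5 in spinal cord day 14, and 4111 and 3003 in spinal cord day 50. With groups set within 10 bins of RNA UMIs, 0 were higher and 16 lower of 22 (median -0.47), and with each cell thinned to 2000 UMIs 0 were higher and 4 lower of 10 (median -0.33). Without the cells in the top 5% of RNA UMIs of their library, 0 were higher and 2 lower (median -0.10). In the grouping by antibody share 0 were higher and 8 lower of 23 (median -0.27), and Mki67 lost its call (log2 -0.27, adjusted p = 0.261).

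Inhibitory receptors had 1 higher and 5 lower of 11 tested (median -0.02). Lag3 was lower at 24.0 against 46.1 CPM in brain day 14, 53.0 against 90.2 in spinal cord day 14 and 12.7 against 47.2 in spinal cord day 50 (log2 -0.89, edgeR adjusted p = 0.000121), and Pdcd1, the gene of PD-1, at log2 -0.51 (adjusted p = 0.0410; 0.246 without brain day 14 and 0.216 without spinal cord day 14). Entpd1, the ectoenzyme CD39 that degrades ATP, was the higher one, at 12.1 against 7.28, 22.1 against 14.2 and 29.5 against 14.3 CPM. For Entpd1, edgeR gave a log2 fold change of 0.73 (adjusted p = 0.00122; 0.0514 without brain day 14). Cd38, which consumes NAD, was higher as well (log2 0.81, adjusted p = 0.00103), and in the grouping by antibody share stood at -0.18 (adjusted p = 0.637). Tnfrsf9, the 4-1BB gene of recently stimulated cells, was lower at 20.4 against 43.4, 27.0 against 80.4 and 12.1 against 25 CPM. For Tnfrsf9, edgeR gave a log2 fold change of -1.32 (adjusted p = 6.21e-06). These 5 genes had the same direction in each library. The T cell receptor activation list, which holds Tnfrsf9, had 4 higher and 5 lower of 17 tested (median -0.01). Cd69 was among its higher members and Tnfrsf9 among its lower ones.

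Interferon response genes were more often higher, 15 of 25 tested against 2 lower (median 0.31), where 8.59% of all genes were higher. Isg20 was read at 210.1 against 87.4 CPM in brain day 14, 173 against 88.8 in spinal cord day 14 and 161 against 65.1 in spinal cord day 50 (log2 1.16, edgeR adjusted p = 1.41e-06) and Isg15, a ubiquitin-like modifier, at 145 against 78.6, 56.9 against 37.4 and 103 against 41.5 CPM. For Isg15, edgeR gave a log2 fold change of 0.85 (adjusted p = 5.22e-05). Ifi27l2a was lower, at 1700.4 against 2278, 527 against 977 and 1149.5 against 1766 CPM. For Ifi27l2a, edgeR gave a log2 fold change of -0.64 (adjusted p = 0.000150). These counts moved with the setting: without brain day 14 5 were higher and 1 lower of 25, with cells thinned to 2000 UMIs 6 were higher and 2 lower of 23, and with the antibody count not divided by RNA UMIs 4 and 2 of 25 (median -0.01). The Ly6, Ifitm and Plac8 list had 7 higher and 1 lower of 10 (median 0.72), with Ly6g5b at log2 1.44 (adjusted p = 1.04e-06) and the stem cell antigen gene Ly6a at 0.68 (adjusted p = 1.13e-05). Ly6c1 was the lower one at log2 -1.58 (adjusted p = 8.64e-05), and is uncertain because reads could be split with a near-identical copy. S100, galectin and cytoskeleton genes of motile cells had 10 higher and 0 lower of 17 (median 0.28), 1 and 0 without brain day 14. Immediate early genes had 8 higher and 0 lower of 16 (median 0.17), and 2 and 1 in the grouping by antibody share.

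**Figure D4:**
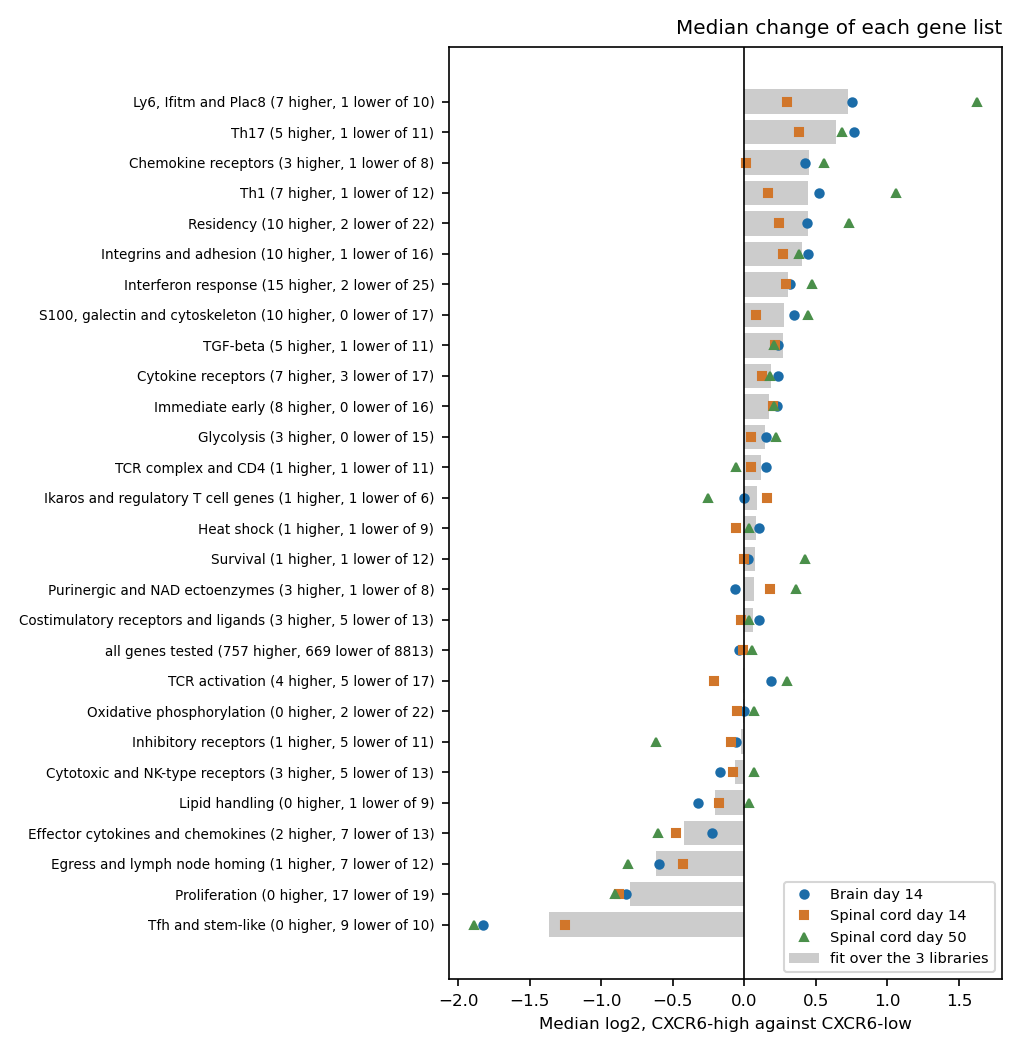
Median log2 change, CXCR6-high against CXCR6-low, of the tested members of each gene list with at least 6 tested members and of all genes: bars give the fit over the 3 libraries and points each library, and the counts beside a name are members called higher and lower of those tested. Tfh and stem-like, proliferation and egress genes have the lowest medians, and the Ly6, Ifitm and Plac8 list the highest.

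Genes of basic metabolism differed little under the rule of grouping. Oxidative phosphorylation had 0 higher and 2 lower of 22 (median -0.01) and glycolysis 3 higher and 0 lower of 15 (median 0.15). Hk2, the hexokinase that commits glucose to glycolysis, had the largest change of the 3, at 53.1 against 18.4 CPM in brain day 14, 35.5 against 21.7 in spinal cord day 14 and 40.2 against 4.29 in spinal cord day 50. For Hk2, edgeR gave a log2 fold change of 1.24 (adjusted p = 0.000513; 0.0534 without brain day 14), and 0.39 (adjusted p = 0.163) in the grouping by antibody share. The list counts depended on the scaling. With groups from the CXCR6 count not divided by RNA UMIs, glycolysis had 11 higher and 0 lower of 15 (median 0.36). Oxidative phosphorylation then had 5 higher and 1 lower of 22 (median 0.11). T cell receptor complex genes had 1 higher and 1 lower of 11 (median 0.11), where 8.59% of all genes were higher and 7.59% lower. The summed T cell markers were 6832 CPM in high and 6718 in low cells of brain day 14, 6800 and 6846 in spinal cord day 14, and 6880 and 7039 in spinal cord day 50, and Foxp3 had 0 UMIs in the high groups and 2, 1 and 1 in the low groups.

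Markers of other cells were low in both groups but not equal. The 5 B cell markers summed to 9.73 CPM in high and 31.6 in low cells of brain day 14, 3.45 and 14.5 in spinal cord day 14, and 31.5 and 62.2 in spinal cord day 50, mostly from Igkc, while Ms4a1 had at most 1 UMI in any group. The 5 natural killer cell markers summed to 30.6 and 9.0, 28.4 and 18.4, and 22.8 and 7.15 CPM, mostly from Klrk1, with Ncr1, Klra8 and Klra4 at 0. Ribosomal protein genes held 32.8% of UMIs in high and 35.4% in low cells of brain day 14, 30.2% and 31.5% in spinal cord day 14, and 35.5% and 39.0% in spinal cord day 50. The part of these markers and of the ribosomal share in the results above was not tested.

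The high to low differences of the 3 libraries were correlated across genes. Over 2373 genes with a mean of at least 50 CPM, the log2 ratios of brain and spinal cord day 14 had a Pearson correlation of 0.848 (Spearman 0.774), those of brain day 14 and spinal cord day 50 0.731 (0.565), and those of spinal cord day 14 and day 50 0.599 (0.486). These are descriptions across genes, which are not independent. Among the 8813 genes tested in all 3 libraries, 858 were past 1.5-fold in brain day 14, 536 in spinal cord day 14 and 832 in spinal cord day 50. Of these, 364 were called in both day 14 libraries, all in the same direction; they are 42.4% of the 858 and 67.9% of the 536. Brain day 14 and spinal cord day 50 shared 339 (39.5% and 40.8%), of which 332 had the same direction, and the spinal cord libraries 225 (42.0% and 27.0%), of which 216 had. In all, 14 genes were called in opposite directions in different libraries.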

How the data were processed

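The authors deposited raw UMI counts per gene and per antibody for each called barcode, made with Cell Ranger 6.1.1 on mm10 per the submitters' processing notes; whether counting used strand is not given in the sources used here. The members, gene lists and tests were chosen with earlier results of these data known. Genes named are the 12 higher and 12 lower with the largest log2 fold change among called genes of at least 50 CPM with one sign in all 3 libraries, the up to 4 members of each of 29 lists with the smallest p, and a fixed set. Batf, Tnf, Ltb, Lef1, Ctsw and Klrk1 were named after their values were seen. Batches within a library are not labelled.

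Counts were summed over high and over low cells of each library, and genes with at least 10 UMIs per library were fitted with edgeR 4.0.16 (quasi-likelihood, TMM, R 4.3.3) with terms for library and CXCR6 level; p-values were Benjamini-Hochberg adjusted over all 8813 genes. Single libraries were compared by CPM ratio with the exact conditional binomial 95% interval and called at 1.5-fold. The 6 sums held 1397948 to 13175886 UMIs, so that a count of 0 allows up to 0.228 to 2.15 CPM (3 counts); intervals and limits cover counting error only. DESeq2 1.42.0 was an alternative. Tested on simulated counts for this comparison, the fit recovered 4 of 50 genes changed 1.2-fold, 29 of 50 at 1.5-fold, 48 of 50 at 2-fold and 50 of 50 at 3-fold, with 6 false calls. The simulation gave all genes the same spread and each changed gene the same fold in each library. Real differences varied between libraries, so these numbers are not the error rate of these data. Scrublet (scanpy 1.11.5) called 0 doublets in both day 14 libraries, where it is taken not to have worked, and 15 in spinal cord day 50; doublets were kept. All 129 named genes matched RefSeq (GRCm38.p6) by symbol. The day 50 brain library, with 348 kept cells, is outside the comparison. Some results are not reported here.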

Additional observations from a re-analysis of the deposited data

Results flagged for a closer look

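The day 50 brain library was not part of the comparison. Its 348 kept cells, grouped by the same rule, gave 87 high and 90 low cells, and all of the low cells had a CXCR6 antibody count of 0. Cxcr6 stood at 598 CPM (176 UMIs) in high and 96.3 CPM (22 UMIs) in low cells, a log2 difference of 2.63, which is a signal outside the main measurement and has no replicate. Of the 105 named genes called over the other libraries, 82 had at least 10 UMIs here and 72 of these had the same direction. Past 1.5-fold with an interval that excludes no difference were 48. Of these, 45 had the same direction and 3, Ccl1, Lag3 and Nrgn, the opposite one. The matching shares over all 4681 genes compared in this library are not given here, so these counts have no baseline. Median RNA UMIs were 3080 in high and 2077 in low cells, a wider gap than in the other libraries.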

How the results depend on the processing

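The high and low sums of a library were paired through the library term of the fit; the labels give no replicate numbers to pair by. The fit called 757 genes higher and 669 lower; leaving out 1 library gave 153 to 1195 higher and 163 to 1119 lower. DESeq2's Wald test called 333 and 263, adding brain day 50 gave 488 and 350, a minimum of 50 UMIs per library gave 369 lower, and no library term gave 1 and 12, where Cxcr6 stood at 1.84, Cd69 at 0.68 and P2rx7 at 0.76 without a call. P2rx7 ranged from 0.44 to 0.78 with 1 library left out, and lost its call without brain day 14 (0.64). With groups from the antibody share the log2 fold change turned for Bcl2 (-0.45), Ccl5 (0.48), Cd38 (-0.18), Csf2 (-0.72), Cxcr4 (0.083), Gzmb (1.57), Gzmk (0.12), Klf2 (0.047), P2rx7 (-1.10) and Trbc1 (0.00585). The protein ratios turned too, for CD69 to 0.327, 0.192 and 0.249 and for P2X7 to 0.373, 0.229 and 0.7185. With the antibody count not divided by RNA UMIs it turned for Birc5 (0.35), Mki67 (0.58), Pclaf (0.96), Rrm2 (0.80) and Stmn1 (0.58). Csf2, which had no call, stood at -0.030 in a split at the median and ranged from -0.32 (without brain day 14) to 0.78 with 1 library left out.

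Counts past 1.5-fold in a split at the median were 326 higher in brain day 14, 190 higher in spinal cord day 14, and 19 higher and 80 lower in all 3 libraries, and the CD69 ratio in spinal cord day 50 was 1.80. With the highest and lowest 10% of cells, 568 were higher in spinal cord day 14. Thinning gave 466 lower in spinal cord day 14, 220 lower in spinal cord day 50 and 66 lower in all 3. The antibody share gave 313 higher and 203 lower in spinal cord day 50, and 28 and 75 in all 3. A minimum of 50 UMIs gave 324 and 179 in spinal cord day 50, and 53 and 52 in all 3. Of 105 called named genes, 82 kept their call with the undivided count, 71 with the antibody share, 102 within bins of RNA UMIs, 75 without brain day 14, 91 without spinal cord day 14, 105 without spinal cord day 50 and 88 with DESeq2's Wald test. The causes of these changes were not tested.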
